A study of Homo sapiens with 12 samples.

Results

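The G2/M and mitosis genes are 40 genes whose products start, carry out and end cell division. They were chosen with earlier results of these data known and looked up by gene symbol in the array's annotation. All 40 were found, each on 1 probe set, among the 21448 probe sets of the array. They were measured in 12 arrays of 3 each from PC-9 cells after SK-216, tolerant PC-9 cells, H1975 cells after SK-216 and tolerant H1975 cells. PC-9 and H1975 are human lung adenocarcinoma cell lines whose growth is driven by a mutated, active EGFR, the receptor of epidermal growth factor. Tolerant cells are the survivors of 1 week in 0.5 µM osimertinib, an EGFR inhibitor, taken on day 8. The SK-216 groups hold such cells that were alive 48 h after SK-216, a code-named compound, was given at 100 µM. All 4 groups had thus been through osimertinib, and no cells without it were analysed here. The sources differ on the starting cells of the SK-216 groups, which the source name calls naive and the titles, descriptions and treatment texts call tolerant. It is not stated whether osimertinib stayed in the medium during SK-216, and no tolerant cells held for a further 48 h without the compound are described. Each SK-216 comparison therefore holds the compound and the extra time at once.

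Cell division is driven by CDK1 bound to A-type and B-type cyclins, which the CDC25 phosphatases switch on, and by the Aurora and polo-like kinases. The spindle then captures chromosomes at their kinetochores, the spindle assembly checkpoint holds anaphase back until all are attached, and the anaphase-promoting complex ends mitosis by marking cyclins and securin for destruction. The genes are transcribed mainly in late S phase, G2 and mitosis under the transcription factors FOXM1 and B-MYB with the MuvB complex. In resting cells the DREAM complex represses them, largely through promoter elements named CHR. Many of their promoters also hold CCAAT boxes, which NF-Y binds. Their summed level in a culture is commonly read as a sign of how many cells are dividing. In bulk RNA, a larger share of cells in G2 and mitosis and more of these transcripts per cell cannot be told apart.

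The promoters of 5 members that carry the results below are shown first, with every CCAAT box (CCAAT or, on the other strand, ATTGG) and every CHR (TTTGAA or TTCGAA, searched on both strands) in capitals. CCNA2 rose in PC-9 cells, CENPA differed between the lines in its change, CCNB1 and BUB1 had the next largest such differences among members with a promoter entry, and MKI67 had a change near 0 in both lines. Each run holds 250 bases before to 50 bases after the start of the gene, written 5′ to 3′ along the gene's strand, from RefSeq assembly GRCh38.p14. CCNA2 lies at chr4:121823834-121824133 on the minus strand, CENPA at chr2:26785806-26786105 on the plus strand, BUB1 at chr2:110678014-110678313 on the minus strand, CCNB1 at chr5:69166900-69167199 on the plus strand and MKI67 at chr10:128126374-128126673 on the minus strand.
CCNA2: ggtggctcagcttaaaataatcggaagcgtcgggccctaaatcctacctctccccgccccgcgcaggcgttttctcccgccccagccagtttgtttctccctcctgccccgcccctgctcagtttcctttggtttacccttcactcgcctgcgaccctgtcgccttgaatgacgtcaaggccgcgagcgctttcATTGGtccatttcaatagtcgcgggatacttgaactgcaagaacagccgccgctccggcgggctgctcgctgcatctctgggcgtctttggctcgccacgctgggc
CENPA: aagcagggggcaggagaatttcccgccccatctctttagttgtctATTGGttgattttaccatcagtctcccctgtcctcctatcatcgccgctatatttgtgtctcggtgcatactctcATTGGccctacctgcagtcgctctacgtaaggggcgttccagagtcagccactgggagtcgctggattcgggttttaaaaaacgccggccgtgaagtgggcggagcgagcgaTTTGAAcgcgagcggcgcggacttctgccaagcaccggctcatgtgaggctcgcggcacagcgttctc
BUB1: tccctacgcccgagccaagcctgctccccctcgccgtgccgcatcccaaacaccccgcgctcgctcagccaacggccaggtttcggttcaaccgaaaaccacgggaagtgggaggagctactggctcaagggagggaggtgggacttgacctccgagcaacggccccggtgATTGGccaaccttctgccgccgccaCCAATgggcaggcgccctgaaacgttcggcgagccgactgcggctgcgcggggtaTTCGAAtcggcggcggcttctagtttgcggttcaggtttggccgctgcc
CCNB1: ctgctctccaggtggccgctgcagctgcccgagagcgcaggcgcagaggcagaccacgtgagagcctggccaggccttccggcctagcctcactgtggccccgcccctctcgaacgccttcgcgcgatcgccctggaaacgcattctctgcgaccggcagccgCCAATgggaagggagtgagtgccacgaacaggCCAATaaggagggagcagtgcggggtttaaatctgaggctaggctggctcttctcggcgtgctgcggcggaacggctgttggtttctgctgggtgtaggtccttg
MKI67: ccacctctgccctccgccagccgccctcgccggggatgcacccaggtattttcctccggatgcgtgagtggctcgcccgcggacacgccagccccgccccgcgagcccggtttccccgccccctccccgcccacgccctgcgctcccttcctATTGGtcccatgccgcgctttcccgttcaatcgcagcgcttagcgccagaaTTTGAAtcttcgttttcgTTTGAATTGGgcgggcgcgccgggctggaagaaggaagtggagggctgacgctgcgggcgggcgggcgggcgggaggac
The CCNA2 promoter held 1 CCAAT box, whose leftmost base lies at position -56 from the start, and none of the searched CHR words. In CENPA, CCAAT boxes stood at -205 and -130 and a CHR at -18. BUB1 had CCAAT boxes at -79 and -54 and the TTCGAA form of the CHR at position 2, just inside the transcript. CCNB1 held CCAAT boxes at -87 and -55 and neither of the searched CHR words. Other forms of the CHR were not searched, so CCNA2 and CCNB1 are not shown to lack the element. MKI67 held CCAAT boxes at -98 and -24 and CHR words at -47 and -29, the last of which shares 1 base with the CCAAT box at -24.

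An entry in the RefSeq promoter table was found for 33 of the 40 members. AURKA, BIRC5, BUB3, FOXM1, TPX2, TTK and UBE2C had no entry there, and 6 members had several starts, of which the first listed was used. A CCAAT box was present in 25 of the 33 promoters, or 75.8%, against 36.4% of the 14250 promoters of genes on the array, and 15 of the 33 held at least 2, 45.5% against 12.6%. A CHR word was present in 24 of 33, or 72.7%, against 13.4% of the 14250 promoters. Both elements stood together in 20 of 33, or 60.6%, against 5.52%. An E2F word (TTCCCGC or TTTGGCG, both strands) was found in 7 members, or 21.2%, against 10.9%, and a TATA word (TATAAA, both strands) in NUSAP1 and TOP2A, 6.06% against 9.41%. Among members with both a CCAAT box and a CHR word the median log2 change after SK-216 was 0.26 in PC-9 and -0.02 in H1975 over 20 genes. The other 13 members with a promoter had medians of 0.19 in PC-9 and -0.10 in H1975. These are matches of letters in a fixed window and not measured binding. Other forms of the CHR were not searched, so the 13 may include promoters with such a form.

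Levels are log2 signals as deposited, so 1 unit is a doubling of signal, and they were compared between groups for the same probe set only. All 40 members exceeded 5.06 in each of the 12 arrays, the 95th percentile of 348 olfactory receptor probe sets, which served as a guide to unexpressed genes. Array medians ran from 6.56 to 6.62, and arrays of a group correlated at 0.993 to 0.995 across probe sets. Epithelial markers were above the olfactory receptor level in all groups for 6 of 6 genes, though EPCAM and CDH1 were far lower in H1975. EPCAM had group means of 15.43 in PC-9 after SK-216 and 15.29 in tolerant PC-9, against 8.95 and 8.18 in H1975. CDH1 had 12.15 and 11.95 in PC-9, against 6.04 and 7.58 in H1975, in the same order. The keratins KRT7, KRT8, KRT18 and KRT19 had group means of 12.63 or more. The lung lineage markers NKX2-1, NAPSA and SFTPB had group means of 3.40 to 5.19, in or just above the range of unexpressed genes. Of the markers of other cell types, 2 of 3 leukocyte, 0 of 3 endothelial and 3 of 5 fibroblast genes had means above 5.06 in all 4 groups. Those below it in all groups were PTPRC of leukocytes, PECAM1 of endothelium and DCN and LUM of fibroblasts. Among the leukocyte genes above it, CD3E had group means of 5.13 to 5.54 and CD14 of 5.79 to 6.75, and among those of fibroblasts COL1A2 had 7.90 to 9.02 and PDGFRB 5.29 to 5.99. COL1A1 had group means of 6.26 in PC-9 after SK-216 and 6.25 in tolerant PC-9, against 7.98 in H1975 after SK-216 and 8.95 in tolerant H1975, and CDH5 had 7.10 and 7.47 in the PC-9 groups, against 4.84 in each H1975 group. The part of these markers in the results was not tested.

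In PC-9 cells, 38 of the 40 members had a higher mean after SK-216 than in tolerant cells, with a median log2 change of 0.26 (range -0.04 to 0.56). AURKA and CCNA2 rose and no member fell, at an adjusted p below 0.05 in a linear model fitted to all probe sets with limma. The called share was 5% of members, against a background of 0.373% of all probe sets called higher in this comparison. Among probe sets within the members' range of mean levels it was 0.67%. Every SK-216 array lay above every tolerant array for 22 of the 40 members, or 55%, against 8.21% of all probe sets and 11.7% of the 10747 probe sets within the members' range of mean levels. At an unadjusted p below 0.05, 20 members were higher and 0 lower, 50% against 6.39% of all probe sets higher and 9.55% within the members' range. The median change was -0.0033 over all probe sets and 0.03 within the members' range of levels. Set against the mean of the 6 PC-9 arrays, the median deviation of the 40 members was 0.16, 0.16 and 0.12 in the SK-216 arrays, against -0.17, -0.16 and -0.04 in the tolerant arrays. The SK-216 arrays had 37, 32 and 32 members above that mean, against 6, 5 and 13 in the tolerant arrays. The groups of arrays did not overlap, and the third tolerant array lay nearest to the SK-216 arrays.

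**Figure D1:**
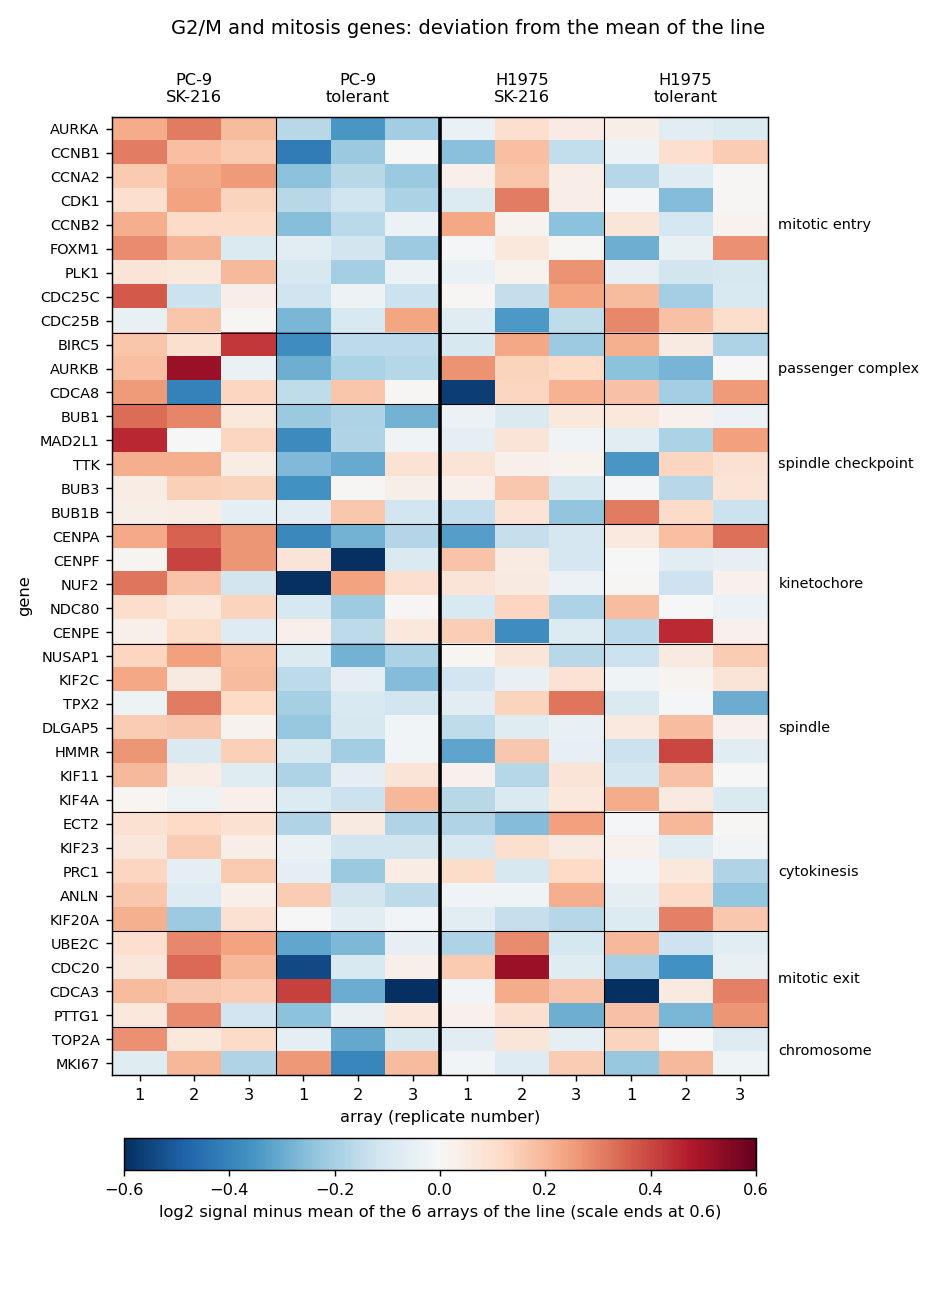
Log2 signal of each of the 40 members (rows, grouped by role) in each of the 12 arrays (columns), as the deviation from the mean of the 6 arrays of the same line, with red above and blue below that mean and colours ending at 0.6. In PC-9 the SK-216 arrays are red for 37, 32 and 32 members and the tolerant arrays for 6, 5 and 13, while no such split is seen between the H1975 groups, where the arrays have 14 to 26 members above the mean.

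AURKA, the Aurora kinase that matures centrosomes and builds the spindle poles, had log2 signals of 12.13, 12.22 and 12.10 in PC-9 cells after SK-216, against 11.74, 11.56 and 11.70 in tolerant PC-9 cells. The lowest SK-216 array was above the highest tolerant array. It rose by 0.48 ± 0.10 (log2 change ± standard error, adjusted p = 0.018), a fold of 1.40. CCNA2, cyclin A2, the partner of CDK2 in S phase and of CDK1 before mitosis, had 12.96, 13.03 and 13.06 after SK-216 and 12.56, 12.64 and 12.58 in tolerant PC-9 cells. The groups were again apart, and CCNA2 rose by 0.42 ± 0.09 (adjusted p = 0.038), a fold of 1.34. Neither call held through the removal of each array in turn. AURKA was no longer called without PC-9 tolerant array 2 or 3 or PC-9 SK-216 array 1 or 2 (highest adjusted p = 0.127), and CCNA2 without any 1 of the 6 PC-9 arrays or without H1975 tolerant array 2 (highest adjusted p = 0.188). With a variance that did not depend on level, neither was called (adjusted p = 0.204 for AURKA and 0.238 for CCNA2).

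**Figure D2:**
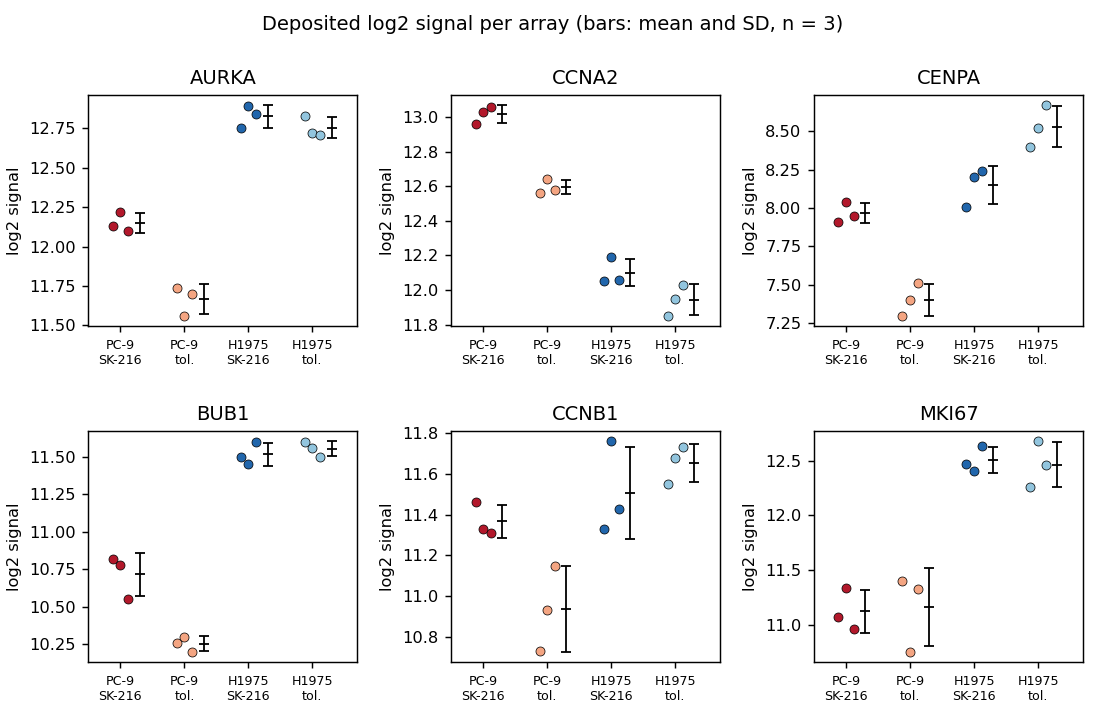
Deposited log2 signal (vertical axes, which do not start at 0) of AURKA, CCNA2, CENPA, BUB1, CCNB1 and MKI67 in each array, 1 point per array, with bars for the mean and SD of 3 arrays, in PC-9 SK-216, PC-9 tolerant, H1975 SK-216 and H1975 tolerant cells. The PC-9 SK-216 points lie above all PC-9 tolerant points for every gene shown but MKI67, and CENPA runs the other way in H1975.

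The other genes of mitotic entry were all on the higher side in PC-9 without passing the test. CCNB1, cyclin B1, which activates CDK1, had log2 signals of 11.46, 11.33 and 11.31 in PC-9 cells after SK-216 and of 10.73, 10.93 and 11.15 in tolerant PC-9 cells. The groups did not overlap, though the tolerant arrays were widely spread, and the change was 0.43 ± 0.13 (adjusted p = 0.174). CDK1 itself, the kinase at the centre of mitotic entry, had 11.76, 11.90 and 11.79 after SK-216, against 11.49, 11.54 and 11.47 in tolerant PC-9 cells. These were apart too, with a change of 0.32 ± 0.12 (adjusted p = 0.293). FOXM1, the transcription factor that activates much of this gene group, had 12.37, 12.29 and 12 in SK-216 arrays and 12.02, 11.98 and 11.87 in tolerant arrays. Here the groups overlapped, with a change of 0.26 ± 0.13 (adjusted p = 0.468). CCNB2, the second B-type cyclin, changed by 0.30, the kinase PLK1 by 0.22, and the phosphatases CDC25C and CDC25B, which free CDK1 of its inhibitory phosphates, by 0.19 and 0.09.

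The chromosomal passenger complex, which corrects faulty attachments of chromosomes to the spindle, was measured through its kinase AURKB and its subunits BIRC5 (survivin) and CDCA8 (borealin). BIRC5 had log2 signals of 8.28, 8.21 and 8.54 in PC-9 cells after SK-216 and of 7.74, 7.96 and 7.96 in tolerant PC-9 cells. The groups were apart, and the change was 0.46 ± 0.17 (adjusted p = 0.312). AURKB had 9.09, 9.43 and 8.87 after SK-216, against 8.62, 8.72 and 8.74 in tolerant PC-9 cells, again without overlap, with a change of 0.44 ± 0.15 (adjusted p = 0.245). CDCA8 was at -0.01 ± 0.20, with SK-216 arrays on both sides of the tolerant arrays.

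Among the spindle checkpoint genes, BUB1, a kinase that recruits checkpoint proteins to unattached kinetochores, had log2 signals of 10.82, 10.78 and 10.55 in PC-9 cells after SK-216, against 10.26, 10.30 and 10.20 in tolerant PC-9 cells. All SK-216 arrays were higher than all tolerant arrays, and the change of 0.46 ± 0.11 had the lowest adjusted p of the members that did not pass (0.074). It passed when the dimmest 30% of probe sets were left out (adjusted p = 0.0466). MAD2L1, which encodes MAD2, the protein that blocks CDC20, changed by 0.39 ± 0.17 and the checkpoint kinase TTK by 0.32 ± 0.13. BUB3, the partner that binds BUB1 and BUB1B, had a change of 0.22 ± 0.11 and BUB1B of 0.01 ± 0.12. None of the 4 passed the test.

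At the centromere, CENPA, the histone variant that marks where the kinetochore forms, had log2 signals of 7.91, 8.04 and 7.95 in PC-9 cells after SK-216, against 7.30, 7.40 and 7.51 in tolerant PC-9 cells. The groups were well apart, and the change of 0.56 ± 0.16 was the largest of any member in PC-9, yet did not pass (adjusted p = 0.160). CENPF, a large kinetochore protein of G2 and mitosis, had 11.02, 11.41 and 11.27 after SK-216 and 11.08, 10.33 and 10.92 in tolerant PC-9 cells. Its groups overlapped, with 1 low tolerant array at 10.33, and the change was 0.46 ± 0.15 (adjusted p = 0.216). NUF2 and NDC80, subunits of the complex that binds spindle microtubules, changed by 0.26 and 0.20, and CENPE, a kinesin that carries chromosomes to the metaphase plate, by 0.04.

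The 7 spindle genes all had positive changes in PC-9, none past the test, with a median of 0.23. The largest were those of NUSAP1, which bundles spindle microtubules, at 0.37 ± 0.10 (adjusted p = 0.135) and of KIF2C, a kinesin that shortens microtubules, at 0.32 ± 0.14. TPX2, which activates AURKA on the spindle, followed at 0.27 ± 0.12, DLGAP5 at 0.23, HMMR at 0.21, KIF11, the motor that pushes spindle poles apart, at 0.11, and KIF4A at 0.01. Genes of the central spindle and cytokinesis had a median of 0.15. ECT2, which activates RhoA for the contractile ring, was at 0.20 ± 0.12, the central spindle kinesin KIF23 at 0.17, the microtubule bundler PRC1 at 0.15, the ring scaffold ANLN at 0.08 and the kinesin KIF20A at 0.06.

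The 4 genes grouped under mitotic exit and ubiquitination had a median change of 0.37 in PC-9. UBE2C, the ubiquitin-conjugating enzyme of the anaphase-promoting complex, was at 0.42 ± 0.14 (adjusted p = 0.216). CDC20, its activator, had log2 signals of 12.21, 12.48 and 12.34 in PC-9 cells after SK-216 and of 11.60, 12.05 and 12.17 in tolerant PC-9 cells. The lowest SK-216 array was just above the highest tolerant array, and the change was 0.40 ± 0.14 (adjusted p = 0.276). CDCA3, in this group for ubiquitination and not for mitotic exit, was at 0.34 ± 0.26 with tolerant arrays spread from 6.19 to 7.22. PTTG1, securin, the inhibitor of separase, was at 0.15 ± 0.15. TOP2A, the topoisomerase that untangles sister chromosomes, was at 0.30 ± 0.09 (adjusted p = 0.195). MKI67, which encodes the proliferation marker Ki-67, had 11.07, 11.34 and 10.96 after SK-216, against 11.40, 10.75 and 11.33 in tolerant PC-9 cells. Those groups overlapped throughout, and the change was -0.04 ± 0.15 (adjusted p = 0.954).

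**Figure D3:**
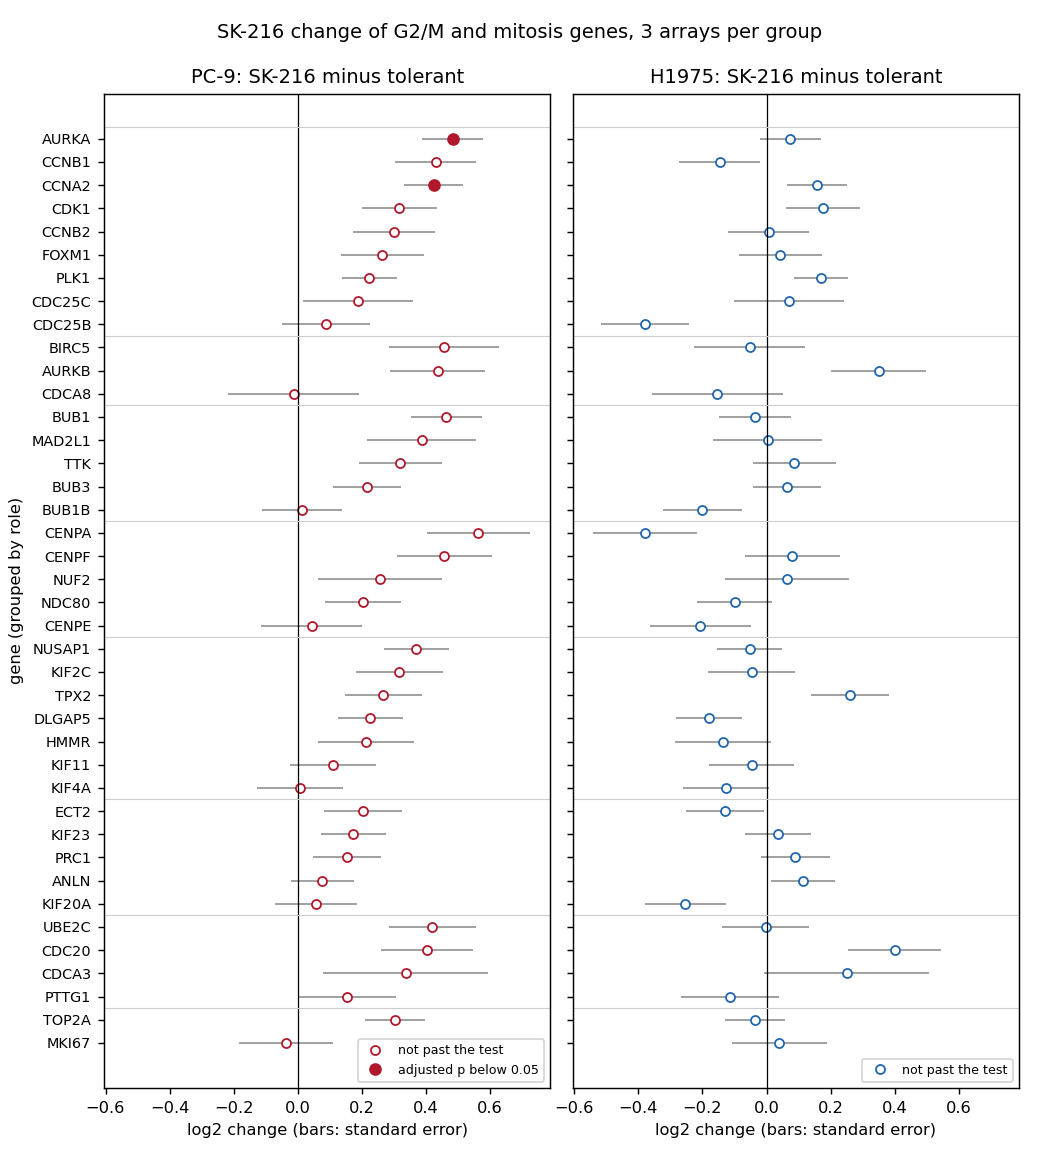
SK-216 minus tolerant log2 change of the 40 members (rows, grouped by role), with bars for the standard error, in PC-9 on the left and H1975 on the right, 3 arrays per group. Filled points passed the test at an adjusted p below 0.05. In PC-9, 38 of 40 points lie above 0 with AURKA and CCNA2 filled, and in H1975 the points are split evenly at 20 above and 20 below 0 with none filled.

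In H1975 cells none of the 40 members passed the test after SK-216, where 3.80% of all probe sets passed in either direction. Within the members' range of levels 2.4% of probe sets were called higher and 3.97% lower. The lowest adjusted p among members was 0.154. Of the members, 20 were above and 20 below 0, with a median log2 change of 0.00 and a range of -0.38 to 0.40, against a median of 0.01 over all probe sets. At an unadjusted p below 0.05, 3 were higher (AURKB, CDC20 and TPX2) and 2 lower (CDC25B and CENPA), 5 of 40 against 14.2% of all probe sets. The groups of arrays were apart for 6 members, upward for AURKB, CCNA2 and PLK1 and downward for CDC25B, CENPA and DLGAP5, against 18.5% of all probe sets. The median deviation from the mean of the 6 H1975 arrays was -0.04, 0.07 and -0.01 in the SK-216 arrays and -0.01, 0.01 and 0.005 in the tolerant arrays.

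The largest H1975 changes went both ways. CDC20 had log2 signals of 12.46, 12.82 and 12.23 in H1975 cells after SK-216 and of 12.11, 11.94 and 12.26 in tolerant H1975 cells. Its groups overlapped, with 1 high SK-216 array at 12.82, and the change was 0.40 ± 0.14 (adjusted p = 0.154). CDC25B had 11.14, 10.87 and 11.06 after SK-216, against 11.50, 11.39 and 11.32 in tolerant H1975 cells, with every SK-216 array lower and a change of -0.38 ± 0.14 (adjusted p = 0.154). CENPA also had every SK-216 array lower, with 8.01, 8.20 and 8.24, against 8.40, 8.52 and 8.67 in tolerant H1975 cells, and a change of -0.38 ± 0.16 (adjusted p = 0.257). AURKB had 10.48, 10.34 and 10.33 after SK-216, against 9.96, 9.93 and 10.21 in tolerant H1975 cells. Here every SK-216 array was higher, and the change was 0.35 ± 0.15 (adjusted p = 0.256). TPX2, with 12.01, 12.21 and 12.40 after SK-216 and 11.99, 12.07 and 11.78 in tolerant H1975 cells, overlapped and changed by 0.26 ± 0.12 (adjusted p = 0.325).

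Of the 5 genes with the largest PC-9 changes, AURKA, BUB1, CENPF and BIRC5 had H1975 changes of -0.05 to 0.08, while CENPA was at -0.38 as given above. AURKB and CDC20, at 0.44 and 0.40 in PC-9, were at 0.35 and 0.40 in H1975. AURKA had log2 signals of 12.75, 12.89 and 12.84 in H1975 cells after SK-216 and of 12.83, 12.72 and 12.71 in tolerant H1975 cells, with overlap and a change of 0.07 ± 0.10. CCNA2 had 12.05, 12.19 and 12.06 after SK-216, against 11.85, 11.95 and 12.03 in tolerant H1975 cells, narrowly apart and with a change of 0.16 ± 0.09. BUB1 had 11.50, 11.45 and 11.60 after SK-216 and 11.60, 11.56 and 11.50 in tolerant H1975 cells, a change of -0.04 ± 0.11 within overlapping arrays. The same overlap held for the next 4 genes. CENPF had 12.21, 12.09 and 11.94 after SK-216, against 12.04, 11.97 and 11.99 in tolerant H1975 cells, and BIRC5 had 8.43, 8.76 and 8.31, against 8.74, 8.58 and 8.34. CDK1 had 11.26, 11.65 and 11.38 after SK-216, against 11.33, 11.08 and 11.35 in tolerant H1975 cells, a change of 0.18 ± 0.12. FOXM1 had 10.84, 10.91 and 10.85 after SK-216, against 10.55, 10.80 and 11.12 in tolerant H1975 cells, a change of 0.04 ± 0.13. MKI67, at 12.47, 12.41 and 12.64 after SK-216 and 12.26, 12.68 and 12.46 in tolerant H1975 cells, also overlapped and changed by 0.04 ± 0.15.

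By role, the median log2 changes after SK-216 were higher in PC-9 than in H1975 in each group. They were 0.30 in PC-9 and 0.07 in H1975 for mitotic entry, 0.44 and -0.05 for the passenger complex, 0.32 and 0.0033 for the spindle checkpoint and 0.26 and -0.10 for the kinetochore genes. For the spindle genes they were 0.23 in PC-9 and -0.05 in H1975, for cytokinesis 0.15 and 0.04, and for mitotic exit and ubiquitination 0.37 and 0.12. For the last group, TOP2A and MKI67, they were 0.13 and 0.0017, though MKI67 lay the other way, at -0.04 in PC-9 and 0.04 in H1975. In the spindle group 7 of 7 genes were above 0 in PC-9 and 6 of 7 below 0 in H1975, TPX2 being the exception.

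The difference of the SK-216 changes, PC-9 minus H1975, was tested as an interaction term of the same fit. It was above 0 for 38 of 40 members, with a median of 0.26. It passed for CENPA only, 2.5% of members, against a background of 1.09% of all probe sets called higher. Within the members' range of levels that share was 1.81%, so 1 call among 40 members is near the background. CENPA, at 0.56 in PC-9 and -0.38 in H1975, differed by 0.94 ± 0.23 on the log2 scale (adjusted p = 0.033). That call ended without H1975 tolerant array 2 or 3, H1975 SK-216 array 1 or 3, PC-9 tolerant array 1 or 2 or any 1 of the PC-9 SK-216 arrays (highest adjusted p = 0.104). CCNB1 was next at 0.58 ± 0.18 (adjusted p = 0.121), with H1975 signals of 11.33, 11.76 and 11.43 after SK-216 and 11.55, 11.68 and 11.73 in tolerant cells. Its H1975 groups overlapped because of the array at 11.76, without which the difference passed at 0.70 (adjusted p = 0.0450). BIRC5 differed by 0.51 ± 0.24, BUB1 by 0.50 ± 0.16 and CDC25B by 0.47 ± 0.19, none past the test. The smallest differences were those of CDC20 at 0.0033 and TPX2 at 0.0067, whose changes were similar in size in both lines. For AURKA the difference of 0.41 ± 0.13 did not pass (adjusted p = 0.148), nor did that of CCNA2 at 0.27 ± 0.13 (adjusted p = 0.408), so their calls in PC-9 alone do not show that the lines differ. This comparison uses the same arrays as those within each line.

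Between the lines, most members were lower in PC-9 than in H1975. In tolerant cells 24 of 40 were lower in PC-9 and 6 higher, with a median log2 difference of -0.52 (PC-9 minus H1975). That is 60% lower and 15% higher, against 22.7% lower and 21.3% higher over all probe sets, and 36.3% lower and 32.0% higher within the members' range of levels. After SK-216, 16 were lower in PC-9 and 10 higher, with a median of -0.17, that is 40% and 25%, against 22.2% and 21.6% of all probe sets and 34.9% and 33.8% within the members' range of levels. The share lower after SK-216 was thus near that of probe sets of like level, and the share higher was below it. The 6 members higher in PC-9 in both states were FOXM1, CCNA2, CDCA3, PTTG1, HMMR and NDC80. Another 16 members were lower in both states. In 8 members the lower level in PC-9 was called in tolerant cells and not after SK-216, namely CCNB1, BIRC5, TOP2A, KIF20A, CENPA, NUSAP1, DLGAP5 and UBE2C, and in 4, CDK1, KIF23, KIF2C and ECT2, a higher level was called only after SK-216. Of these 12, only CENPA passed the test of the difference itself.

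All 5 spindle checkpoint genes were called lower in PC-9 in both states, with a median of -0.80 after SK-216 and -1.27 in tolerant cells. Over all probe sets 22.2% were called lower after SK-216 and 22.7% in tolerant cells. Within the members' range of levels these shares were 34.9% and 36.3%. BUB3 had log2 signals of 12.43, 12.53 and 12.52 in PC-9 and 14.06, 14.19 and 13.93 in H1975 after SK-216, a difference of -1.57 ± 0.11 (adjusted p = 6.75e-12). In tolerant cells it had 12.02, 12.39 and 12.42 in PC-9, against 14.02, 13.86 and 14.11 in H1975, a difference of -1.72 ± 0.11 (adjusted p = 1.21e-12). Every PC-9 array was far below every H1975 array. The remaining checkpoint genes ranged from -0.89 (MAD2L1) to -0.33 (TTK) after SK-216 and from -1.30 (BUB1) to -0.56 (TTK) in tolerant cells.

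The kinetochore and spindle genes held both signs. NUF2 was the lowest, with 8.14, 7.99 and 7.71 in PC-9 and 9.95, 9.93 and 9.84 in H1975 after SK-216, a difference of -1.96 ± 0.19 (adjusted p = 6.12e-09). In tolerant cells NUF2 had 7.09, 8.06 and 7.92 in PC-9, against 9.88, 9.75 and 9.90 in H1975, a difference of -2.15 ± 0.19 (adjusted p = 1.17e-09), with 1 low PC-9 array at 7.09. NDC80, which pairs with NUF2 in the same complex, lay the other way, at 0.71 ± 0.12 after SK-216 and 0.41 ± 0.12 in tolerant cells. KIF11 had 9.54, 9.39 and 9.27 in PC-9 and 10.71, 10.51 and 10.76 in H1975 after SK-216, a difference of -1.26 ± 0.13. In tolerant cells KIF11 had 9.16, 9.29 and 9.42 in PC-9, against 10.58, 10.86 and 10.68 in H1975, a difference of -1.42 ± 0.13 (adjusted p = 2.51e-09). In contrast HMMR was higher in PC-9, by 0.77 ± 0.15 after SK-216 and 0.42 ± 0.15 in tolerant cells.

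Genes of mitotic entry were called in both directions between the lines. CDC25B had log2 signals of 9.32, 9.53 and 9.37 in PC-9, against the H1975 arrays at 11.14, 10.87 and 11.06, after SK-216, a difference of -1.62 ± 0.14 (adjusted p = 4.09e-10). In tolerant cells CDC25B had 9.09, 9.27 and 9.60 in PC-9, and the difference was -2.08 ± 0.14 (adjusted p = 3.87e-12). FOXM1, in contrast, was the member with the largest excess in PC-9, at 1.35 ± 0.13 after SK-216 (adjusted p = 3.50e-09) and 1.13 ± 0.13 in tolerant cells (adjusted p = 6.92e-08). CCNA2 was also higher in PC-9, by 0.92 ± 0.09 after SK-216 and 0.65 ± 0.09 in tolerant cells, while AURKA was lower, at -0.68 ± 0.10 and -1.09 ± 0.10. AURKB, with the array values given above, differed by -1.25 ± 0.15 after SK-216 and by -1.34 ± 0.15 in tolerant cells (adjusted p = 3.79e-08). MKI67 differed by -1.38 ± 0.15 after SK-216 (adjusted p = 2.09e-08) and by -1.31 ± 0.15 in tolerant cells, and every PC-9 array was below every H1975 array in both states. TOP2A, the other gene often read as a proliferation marker, was at -0.01 after SK-216 and at -0.35 ± 0.09 in tolerant cells.

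Of the 5 cytokinesis genes, 1 was called lower in tolerant PC-9 cells, or 20%, against 22.7% of all probe sets. After SK-216, 2 were called higher in PC-9, or 40%, against 21.6% of all probe sets. Within the members' range of levels these shares were 36.3% and 33.8%. KIF20A alone was lower in tolerant PC-9 cells, at -0.32 ± 0.13 (adjusted p = 0.0454), a call that ended in 8 of the 12 fits without 1 array, and the others lay between -0.18 (ANLN) and 0.16 (ECT2). After SK-216, ECT2 at 0.49 ± 0.12 and KIF23 at 0.25 ± 0.10 were higher in PC-9, the second of which ended in 10 of the 12 fits without 1 array (highest adjusted p = 0.188). Of the other line calls, in tolerant cells those of CDCA3, HMMR and PTTG1 ended in 10, 4 and 2 such fits, and after SK-216 those of TTK and CDCA3 in 6 and 4 and those of CDK1 and PLK1 in 1 each.

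**Figure D4:**
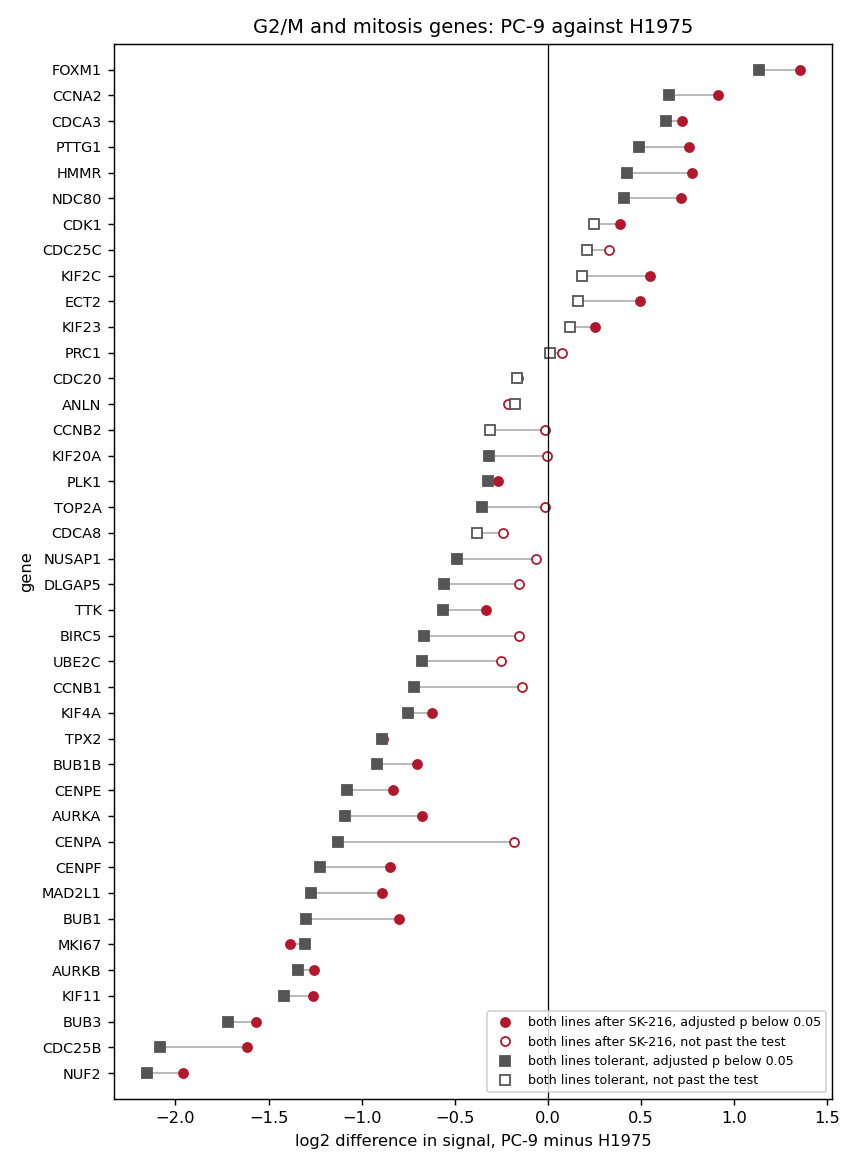
PC-9 minus H1975 difference in log2 signal for the 40 members (rows, ordered by the difference in tolerant cells), after SK-216 (circles) and in tolerant cells (squares), joined by a line per gene. Filled marks passed the test at an adjusted p below 0.05, with 26 filled circles and 30 filled squares. Most circles lie to the right of their squares, the widest step being that of CENPA at 0.94.

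Other genes of the same processes were read from lists chosen for their roles, with earlier results of these data known. Of 44 other measured G2/M and mitosis genes, none passed in PC-9 after SK-216, where 0.373% of all probe sets were called higher. Of the 44, 39 were above 0 in PC-9 with a median of 0.20. Every SK-216 array lay above every tolerant array for 12, or 27.3%. The share was 8.21% over all probe sets and 11.7% within the members' range of levels. The largest PC-9 changes of the 44 were those of CDCA5, the cohesin protector sororin, at 0.41 ± 0.14 and of the spindle protein CKAP2 at 0.40 ± 0.13. In H1975, 24 of the 44 were above 0 with a median of 0.005. MIS12, a kinetochore subunit, was the only call, 2.27% of the 44, against 1.44% of all probe sets called higher. It rose by 0.59 ± 0.14 (adjusted p = 0.017), with group means of 11.43 after SK-216 and 10.84 in tolerant cells. That call ended in 4 of the 12 fits without 1 array (highest adjusted p = 0.0777) and under 1 other alternative (adjusted p = 0.0816). The difference of the SK-216 changes, PC-9 minus H1975, was above 0 for 35 of the 44 and below 0 for 9, with a median of 0.23. None passed, where 1.09% of all probe sets were called higher and 0.331% lower. The largest difference in size was below 0, that of SKA1 at -0.87 ± 0.24 (adjusted p = 0.079), and the highest was 0.54. In tolerant cells 27 of the 44, or 61.4%, were lower in PC-9 than in H1975 and 4, or 9.09%, higher. The shares over all probe sets were 22.7% and 21.3%, and those within the members' range of levels 36.3% and 32.0%.

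The 15 condensin and cohesin subunits, the 17 subunits and regulators of the anaphase-promoting complex and the 14 DREAM, MuvB and B-MYB regulators held no call after SK-216 in either line. Over all probe sets 0.373% were called higher and 0.0699% lower in PC-9, and 1.44% higher and 2.35% lower in H1975. The absence of calls in lists of this size is thus not read as a result. The median log2 changes of the lists, in that order, were 0.07, 0.17 and 0.02 in PC-9 and 0.03, 0.02 and 0.07 in H1975. In PC-9 the largest changes were those of NCAPH, a condensin subunit, at 0.45 ± 0.11 (adjusted p = 0.085), UBE2S, which extends ubiquitin chains, at 0.40 ± 0.13, LIN52, a MuvB subunit, at 0.63 ± 0.15 (adjusted p = 0.073) and MYBL2, which encodes B-MYB, at 0.33 ± 0.11. The H1975 counterparts were WAPL, which releases cohesin, at 0.39 ± 0.15, ANAPC16 at -0.32 ± 0.12 and the repressor E2F5 at 0.43 ± 0.17.

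Among 11 measured brakes of the cell cycle, 1 was called higher in each line, or 9.09%. Over all probe sets 0.373% were called higher in PC-9 and 1.44% in H1975. CDKN1A, which encodes the kinase inhibitor p21, rose in PC-9 by 0.75 ± 0.16 (adjusted p = 0.037), with group means of 8.64 after SK-216 and 7.89 in tolerant cells, and was at 0.18 ± 0.16 in H1975. The CDKN1A call ended in 5 of the 12 fits without 1 array (highest adjusted p = 0.157) and under 4 of the other alternatives (highest adjusted p = 0.110). GADD45A, a stress-induced inhibitor of CDK1, rose in H1975 by 0.72 ± 0.14 (adjusted p = 0.0024), with group means of 11.08 after SK-216 and 10.36 in tolerant cells, and was at 0.38 ± 0.14 in PC-9 (adjusted p = 0.297). GADD45A passed in all 12 fits without 1 array, and the difference between the lines passed for neither gene (adjusted p = 0.282 for CDKN1A and 0.504 for GADD45A). Of 31 measured genes of G1/S and DNA replication, none passed in either line, with the shares over all probe sets given above. Of these 31, 29 were above 0 in PC-9 with a median of 0.23 and 25 in H1975 with a median of 0.15. Every SK-216 array lay above every tolerant array for 13 in PC-9, or 41.9%, and for 8 in H1975, or 25.8%. Over all probe sets these shares were 8.21% and 8.95%, and within the members' range of levels 11.7% and 10.9%. The largest changes of the 31 were those of E2F1, a transcription factor of S phase entry, at 0.67 ± 0.21 in PC-9, and of CCNE2 and the replication factor CDC45, both at 0.50 in H1975.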

How the data were processed

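Total RNA, 250 ng per array per the labels' protocols, was hybridised to 12 whole-transcript arrays of 1 colour, 3 for each of 4 groups. The deposited values are log2 signals made by the authors, 1 value for each probe set on each array. They used Transcriptome Analysis Console, per the submitters' processing notes. Its version, the normalization and the genome build were not given in the sources used here. No further normalization or filter was applied. Of 21448 probe sets, 17709 carried 1 gene symbol from the platform annotation and 3739 were unnamed.

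With limma 3.58.1 (R 4.3.3), 1 model of the 4 group means was fitted over the 12 arrays, using eBayes with a trend of variance on level. The residual degrees of freedom were 8 and the prior ones 15.0 (median). Tests were two-sided, with Benjamini-Hochberg adjustment over all probe sets. Errors of changes are standard errors of that fit. Nothing says that replicates were separate cultures, so p-values reflect the spread between arrays alone, which may be technical. Arrays give no read depth, and 3 per group limit the precision.

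The members and lists were chosen with earlier results of these data known. All members are named. Values in every array are given for those past the test after SK-216 or in the difference between the lines, for the 5 largest changes of each comparison, to which the comparisons of the lines were limited because over 15 members passed there, and for MKI67, CCNB1, CDK1 and FOXM1, and for each list its calls or else its largest changes. The alternatives were another variance model, each line alone, a replicate block, a filter on dim probe sets, quantile or median scaling, array weights, other thresholds and leaving out each array. The fit was tested on simulated data. The planted changes were larger than any SK-216 change of a member, so that test does not cover changes of the size seen here. Figures were drawn with matplotlib 3.10.9.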

Additional observations from a re-analysis of the deposited data

Results flagged for a closer look

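CENPA was singled out because its SK-216 change differed between the lines by the interaction term of the fit. The difference, PC-9 minus H1975, was 0.94 ± 0.23 on the log2 scale (adjusted p = 0.033), made of a change of 0.56 ± 0.16 in PC-9 and of -0.38 ± 0.16 in H1975. Every SK-216 array was above every tolerant array in PC-9, and every SK-216 array was below every tolerant array in H1975. Neither change passed the test within its line (adjusted p = 0.160 in PC-9 and 0.257 in H1975). After leaving out 1 array the difference ranged from 0.87 to 1.01, with adjusted p from 0.0449 to 0.104.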

How the results depend on the processing

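The number of members called in H1975 after SK-216 was 0 under every alternative run. In PC-9 the count of 2 became 0 without the variance trend, with each line fitted alone and at an adjusted p below 0.01, 1 with quantile normalization, and 3 without the dimmest 30% of probe sets or at an adjusted p below 0.10. Leaving out 1 array gave 0 to 2 in PC-9 (0 without PC-9 tolerant 2 or 3 or PC-9 SK-216 1 or 2) and 0 to 2 for the difference between the lines, where 2 were called without H1975 SK-216 array 2. The difference count of 1 became 0 at an adjusted p below 0.01. Same-numbered arrays did not deviate together: their correlations were 0.0073, -0.091 and -0.085 in H1975 and 0.029, 0.020 and 0.015 in PC-9. These correlations cannot show whether same-numbered samples were paired in the experiment. With a replicate block within each line the counts became 0 in PC-9 and 0 for the difference, and the line counts of 30 and 26 became 23 in tolerant cells and 21 after SK-216, their lowest values. The median change of the members in PC-9 stayed between 0.22 and 0.29, and no called change turned its sign. Under some alternatives the changes of 17 uncalled members in H1975 and 8 in PC-9 had the other sign. The cause of these shifts was not tested, and 3 arrays per group limit what can be called.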
